A study of Mus musculus with 4 samples.

Results

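Cyclic nucleotide phosphodiesterases are the enzymes that break down the intracellular messengers cAMP and cGMP and so end their signals. The genes described here are 10 mouse genes of this family, Pde1a, Pde1c, Pde2a, Pde4a, Pde4b, Pde4d, Pde7b, Pde8b, Pde9a and Pde10a, of 32285 genes in the deposited matrices. They were chosen by symbol, with earlier results on the same libraries known, among them a lower Pde10a level in astrocytes of the mutant mice, so that the astrocyte contrast is described below without a test. RNA of single nuclei was counted in the hippocampus of adult C57BL/6N mice at the oldest age of the study. Wild-type (WT) mice were compared with mice that carry 1 copy of Cyfip2 with the R87C change (KI, Cyfip2+/R87C), a model of West syndrome, an epilepsy that begins with infantile spasms. Cyfip2 encodes a subunit of the WAVE complex, which directs actin branching. There were 2 libraries a genotype, so that n = 2 throughout. Neither the labels nor the methods say whether they came from separate mice, and the sex of each library is not given, although the methods state that males and females were used in the study. The p-values therefore measure only the spread between these libraries, which may be technical. The treatment label of KI replicate 2 reads R88C where its genotype label reads KI, and the library was kept in the KI group.

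Neurons set the amount of cAMP and cGMP by balancing cyclases, which make them, against phosphodiesterases, and the balance bears on synaptic strength and on transcription through CREB. The family is divided by substrate and by regulator. Pde1a and Pde1c encode enzymes that calcium and calmodulin switch on and that cut both messengers. Pde2a encodes an enzyme for both messengers that cGMP stimulates, and Pde10a another enzyme for both, best known from the medium spiny neurons of the striatum. Pde4a, Pde4b and Pde4d encode the cAMP-specific enzymes that rolipram inhibits, Pde7b and Pde8b cAMP-specific enzymes that rolipram does not inhibit, and Pde9a an enzyme with high affinity for cGMP.

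The 4 libraries held 55640 barcodes with 73009975 to 77370563 UMIs (unique molecular identifiers, each counted once) in 3 libraries and 80913580 in KI replicate 2. After removal of 345 barcodes with few genes or many mitochondrial reads and of 3263 doublets, 52032 nuclei remained, 11932 to 14927 per library. Pairs of libraries shared 40 to 67 barcode sequences, at most 0.529% of the smaller library. Nuclei were assigned to cell classes by markers, and 14 classes with at least 20 nuclei in every library were kept, while 8.52% of nuclei stayed without a class (6.48% and 6.70% in WT replicates 1 and 2, 8.73% and 12.5% in KI replicates 1 and 2). All 10 astrocyte markers, all 9 oligodendrocyte markers and 7 of 8 dentate gyrus (DG) granule neuron markers were highest in their own class, but only 1 of 7 markers of the gate for subicular or cortical excitatory neurons was, and that gate is called here by its leading gene, the Tshz2-led excitatory gate. A gate for mossy cells was left out after its marker levels were seen, since it also held Man1a, a CA1 marker, at 125 to 336 CPM and Tshz2, a subicular or cortical marker, at 78.9 to 200.4 CPM, although 5 of its 7 own markers were highest there. Microglia of KI replicate 2 stood apart, with a median of 5023 UMIs per nucleus against 1598 to 1783 in the other libraries and 9576 CPM of 10 neuronal transcripts against 4248 to 6240, and its neuronal transcripts were also above the other libraries in oligodendrocytes (5951 CPM against 3659 to 4170), committed oligodendrocyte precursors (8705 against 3052 to 5203) and oligodendrocyte precursors (7497 against 3785 to 5184). Fold changes named for these 4 classes are therefore given with and without that library. Its neuronal transcripts were also the highest in mural cells (14287 CPM against 7203 to 11544) and in astrocytes (3992 against 3221 to 3654). Mural cells and astrocytes are not given in this paired way. Cyfip2 itself had 182 and 180 CPM in WT libraries and 172 and 171 CPM in KI nuclei, and its counts do not read the changed codon, so the genotypes could not be checked from the files.

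Levels are given as CPM, the count of a gene per 1000000 UMIs of the same class and library. Reads came from the 3′ ends of transcripts, so isoforms of a gene are summed and levels of different genes are not compared with each other. Positions are on GRCm38. Pde10a (ENSMUSG00000023868) lies on the plus strand of chromosome 17 from 8525372 to 8986648, Pde1a (ENSMUSG00000059173) on the minus strand of chromosome 2 from 79834453 to 80129458 and Pde7b (ENSMUSG00000019990) on the minus strand of chromosome 10 from 20398004 to 20725078. Annotated genes overlap Pde10a on the opposite strand (Gm15425, Gm17087 and Gm15426) and Pde7b on the same strand (Gm17229) and on the opposite strand (Gm17230), and reads shared with these genes could not be told apart, since the authors' setting for strand was not given in the sources used here.

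Promoter windows, from 250 bases before to 50 bases after an annotated start, were read from RefSeq (GRCm38.p6), and 28 windows of 9 of the 10 genes were in the table used, while no window of Pde9a was used here. They were searched for the cAMP response element, the site on which CREB acts, as the full site TGACGTCA and as its half-sites TGACG and CGTCA, each the reverse complement of the other. The full site, a palindrome that holds both half-sites, was in 0 of the 28 windows and in 588 of 32851 windows of all genes (1.79%). A half-site was in 5 of the 28 windows (17.9%), 1 each of Pde1a, Pde2a, Pde4a, Pde4b and Pde8b, and in 20.8% of all windows. Printed are both windows of Pde10a, the window of Pde7b and, of the 4 windows of Pde1a, the 1 that holds a half-site, since these 3 genes have the lower values in KI nuclei that lead the comparison below. The other 3 windows of Pde1a held 0 half-sites. The sequences are given 5′ to 3′ on the strand of the gene, with the half-site in capitals where there is one. The pair for Pde10a (chr17:8801495-8801794 and chr17:8849735-8850034) and the window of Pde7b (chr10:20548279-20548578) lie inside the annotated span of their genes, as does the Pde1a window with a half-site (chr2:80038853-80039152).
Pde10a upstream start: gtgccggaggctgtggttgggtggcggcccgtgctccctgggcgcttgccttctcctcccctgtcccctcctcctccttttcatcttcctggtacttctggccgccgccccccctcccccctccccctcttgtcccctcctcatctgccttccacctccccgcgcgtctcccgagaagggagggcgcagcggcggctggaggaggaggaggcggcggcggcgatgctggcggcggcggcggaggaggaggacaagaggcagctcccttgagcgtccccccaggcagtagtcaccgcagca
Pde10a downstream start: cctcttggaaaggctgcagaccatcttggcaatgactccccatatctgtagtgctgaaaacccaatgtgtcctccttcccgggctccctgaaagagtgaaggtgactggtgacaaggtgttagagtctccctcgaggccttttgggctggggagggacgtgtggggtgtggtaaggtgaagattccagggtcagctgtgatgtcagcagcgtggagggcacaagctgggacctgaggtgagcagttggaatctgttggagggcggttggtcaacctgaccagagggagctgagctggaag
Pde1a internal start: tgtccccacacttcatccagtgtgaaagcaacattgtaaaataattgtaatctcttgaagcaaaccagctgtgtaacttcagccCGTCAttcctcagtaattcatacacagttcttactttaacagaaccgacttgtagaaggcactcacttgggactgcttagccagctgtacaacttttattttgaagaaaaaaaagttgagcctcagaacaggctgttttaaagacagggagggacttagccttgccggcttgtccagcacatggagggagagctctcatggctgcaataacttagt
Pde7b start: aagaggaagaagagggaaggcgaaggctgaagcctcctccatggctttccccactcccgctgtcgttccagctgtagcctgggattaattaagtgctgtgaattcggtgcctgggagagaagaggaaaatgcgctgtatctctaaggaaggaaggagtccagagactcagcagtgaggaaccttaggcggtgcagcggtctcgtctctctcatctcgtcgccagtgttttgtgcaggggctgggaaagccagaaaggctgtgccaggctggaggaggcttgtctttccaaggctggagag
The Pde10a and Pde7b windows held no match to these letters.

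In WT hippocampus the family members had their highest levels in different classes. They are given with the lower library first and as a description without a test, since the genes were chosen with such values known. Of the calcium-activated enzymes, Pde1a was highest in excitatory neurons, with 1111 and 1214 CPM in the Tshz2-led gate, 1156 and 1157 CPM in CA1, 1023 and 1026 CPM in CA2 and 926 and 1011 CPM in CA3. The Tshz2-led gate and CA1 overlapped, while CA2 and CA3 did not overlap the class above them. DG granule neurons had 258 and 266 CPM of Pde1a, and the lowest mean was that of committed oligodendrocyte precursors (94.2 CPM). Pde1c had the opposite distribution, with 164 and 185 CPM in oligodendrocytes and 4.70 to 11.9 CPM in the libraries of DG, CA1, CA2 and CA3 neurons. Between these ends, all 9 neighbouring pairs from oligodendrocytes down to the Tshz2-led gate overlapped.

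The cAMP-specific Pde4 genes differed in where they were highest. Pde4b reached 5409 and 6102 CPM in oligodendrocytes, followed by 2280 and 2329 CPM in committed precursors, 1924 and 2267 CPM in microglia and 1908 and 2012 CPM in oligodendrocyte precursors, and it was lowest in DG granule neurons (89.4 and 129.9 CPM). Pde4d was lowest in oligodendrocytes (212 and 223 CPM) and highest in CA2 neurons (2356 and 2926 CPM), with inhibitory neurons at 2226 and 2247 CPM and CA3 at 1929 and 2285 CPM, which overlapped each other. Pde4a was highest in DG granule neurons (133 and 155 CPM) and CA2 neurons (122 and 160 CPM), which overlapped.

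Pde7b, Pde8b and Pde9a had their highest levels outside the pyramidal classes, and Pde2a and Pde10a had theirs in CA1. Pde8b had 1304 and 1536 CPM in mural cells, the contractile cells of vessel walls, which had 25 and 30 nuclei in these libraries, and then 394 and 438 CPM in astrocytes. Pde7b was highest in oligodendrocyte precursors (366 and 465 CPM), fibroblasts (364 and 386 CPM) and DG granule neurons (356 and 368 CPM), which overlapped, with astrocytes next at 287 and 301 CPM, and it was lowest in CA3 (12.2 and 14.1 CPM). Pde9a was highest in committed oligodendrocyte precursors (79.0 and 143 CPM, from only 15 and 17 UMIs) and next in inhibitory neurons (76.0 and 78.7 CPM, from 449 and 567 UMIs). It was lowest in oligodendrocytes (3.82 and 6.57 CPM). Of the enzymes for both messengers, Pde2a was highest in CA1 (143 and 150 CPM) with overlap down to CA2, and Pde10a in CA1 (881 and 924 CPM), then inhibitory neurons (813 and 835 CPM) and the Tshz2-led gate (694 and 755 CPM), each below the class before it without overlap. Pde10a in astrocytes (288 and 407 CPM) overlapped that in Cajal-Retzius cells and DG granule neurons, and oligodendrocytes were lowest (86.8 and 98.2 CPM). Of 13 neighbouring pairs in the order of classes, 8 were separate for Pde10a and Pde1a and 2 for Pde1c and Pde2a.

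**Figure D1:**
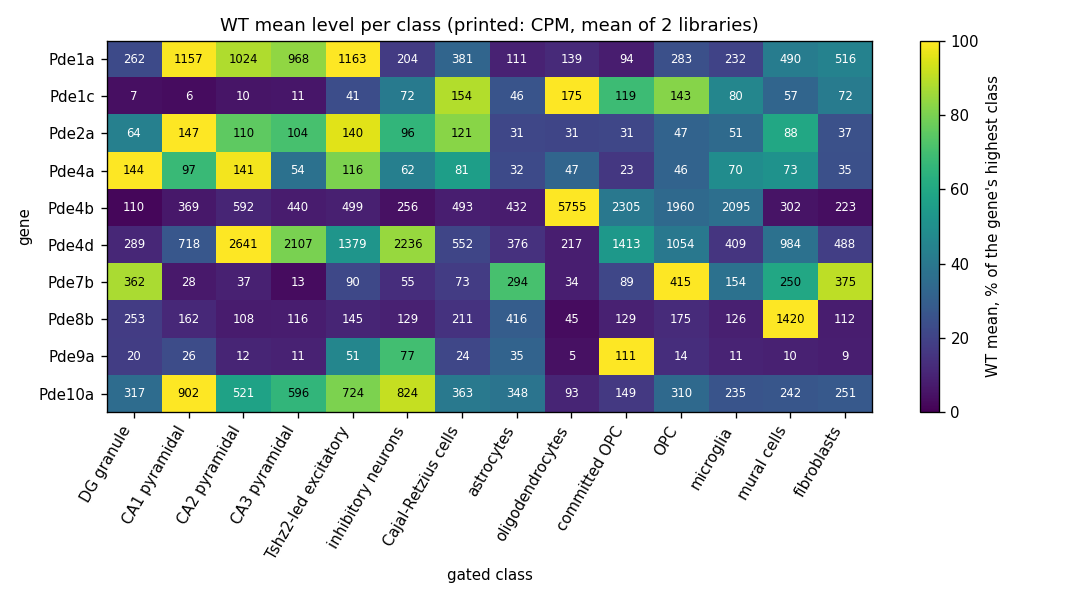
Mean WT level of each gene (rows) in each class (columns); the printed number is the mean CPM of 2 libraries and the colour is that mean as a percent of the gene's highest class. Pde2a, Pde4d and Pde10a peak in pyramidal classes, Pde1a in the Tshz2-led gate beside CA1, Pde4b and Pde1c in oligodendrocytes and Pde8b in mural cells.

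Across the 14 classes, the genes whose profile was most like that of a member were named by Pearson's r of log2(CPM + 1) class means among 14029 genes, as a description over classes that share libraries and depth. Scube1 was most like Pde1a (r = 0.938), Mtss1 most like Pde1c (0.915), Gm44643 most like Pde2a (0.964), Unc13a, a synaptic vesicle priming gene, most like Pde4a (0.914) and Clasrp most like Pde4b (0.930). Pnpt1 was most like Pde4d (0.897), Pitpnc1 most like Pde7b (0.871), Gm11712 most like Pde8b (0.898), Miga1 most like Pde9a (0.880) and Nmt2 most like Pde10a (0.931). Shfl (0.925) and Gm43192 (0.921) ranked next for Pde10a, and Creb5, a gene of the CREB-related factors, ranked next for Pde1c (0.909).

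KI nuclei were then compared with WT nuclei in each class, with values given for replicate 1 and then replicate 2. Outside astrocytes, 120 of 130 pairs of a gene and a class passed the low-count filter, and 9 pairs passed an adjusted p of 0.05 (edgeR quasi-likelihood test, Benjamini-Hochberg over all genes of a class), 7 lower and 2 higher in KI, where 2.05% of all 142965 tested pairs of a gene and a class passed. They came from 6 genes and from 4 classes, the DG granule neurons and the CA1, CA2 and CA3 pyramidal neurons. The number of member calls was 4 without WT replicate 1, 4 without WT replicate 2, 19 without KI replicate 1 and 34 without KI replicate 2. The share of all pairs that passed moved with it, to 0.668%, 1%, 6.36% and 16.6%. In the mossy cell gate, fitted after the data were seen, 0 of 10 members passed, where edgeR called 0.00886% of 11283 genes, and 4 members had an unadjusted p below 0.05, among them Pde10a (836 and 837 CPM in WT, 496 and 367 CPM in KI, log2 fold change -0.86, SE 0.20, adjusted p = 0.165).

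Pde10a fell in KI nuclei in DG granule neurons and in CA1, CA2 and CA3 pyramidal neurons. In DG granule neurons it had 304 and 331 CPM in WT libraries and 193 and 164 CPM in KI libraries, 0.561 of the WT mean (log2 fold change -0.69, SE 0.13, edgeR adjusted p = 0.0265). In CA1 pyramidal neurons, where Pde10a was highest, it had 924 and 881 CPM in WT libraries and 498 and 439 CPM in KI (0.519 of the WT mean, log2 fold change -0.87, SE 0.12, edgeR adjusted p = 0.0200). In both classes every KI library was below every WT library. CA2 neurons had 545 and 497 CPM in WT libraries and 309.5 and 207 CPM in KI (log2 fold change -0.97, SE 0.18, edgeR adjusted p = 0.0232), and CA3 neurons 620 and 571 CPM in WT libraries and 398 and 317 CPM in KI (log2 fold change -0.66, SE 0.14, edgeR adjusted p = 0.0388). These groups did not overlap either, and KI replicate 2 was the lower KI library in each of the 4 classes. Pde10a was the only member that passed in more than 1 class.

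The calls for Pde10a depended on single libraries. In DG granule neurons the adjusted p was 0.0748 without WT replicate 1 and 0.144 without WT replicate 2, in CA1 0.103 without KI replicate 1, in CA2 0.0978 without WT replicate 1, and in CA3 0.271 and 0.0908 without WT replicates 1 and 2, while the log2 fold change stayed between -1.33 and -0.53 over the alternatives run in DG, CA1 and CA2 (Leiden clusters gave no CA2 class) and between -0.88 and -0.49 in CA3. The CA1 value also missed the threshold without the low-count filter (adjusted p = 0.134), the CA2 value with the replicate number as a block (adjusted p = 0.111), and the CA3 value with cluster-based classes (adjusted p = 0.0583).

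Inhibitory neurons had a like size of difference in Pde10a that did not pass. They had 813 and 835 CPM in WT libraries and 465 and 374 CPM in KI (0.509 of the WT mean, log2 fold change -0.87, SE 0.14, edgeR adjusted p = 0.0663), in a class where 0.077% of 15587 genes passed. The Tshz2-led gate had 755 and 694 CPM in WT libraries and 630 and 409 CPM in KI (log2 fold change -0.40, SE 0.24, adjusted p = 0.610). In glial classes other than astrocytes Pde10a did not pass, with log2 fold changes of -0.02 in oligodendrocytes, 0.16 in committed precursors, -0.14 in oligodendrocyte precursors and -0.38 in microglia. These values depended on KI replicate 2, the library with more neuronal transcripts in glia. Without it, with 1 KI library left, they were -0.50 in oligodendrocytes (SE 0.15, edgeR adjusted p = 0.0147), -0.44 in committed precursors (adjusted p = 0.896), -0.05 in oligodendrocyte precursors (adjusted p = 0.896) and -1.15 in microglia (SE 0.22, edgeR adjusted p = 6.95e-06), in a fit whose background share and neuronal transcripts are given below. Fibroblasts went the other way, with 268 and 233 CPM in WT libraries and 372 and 370 CPM in KI (log2 fold change 0.63, SE 0.35, adjusted p = 0.917). Both KI libraries were below both WT libraries in 9 of the 13 classes other than astrocytes for Pde10a, a pattern that 30.4% of all 142965 tested pairs of a gene and a class showed, while 18.2% had both above. Over all nuclei together Pde10a had 575 and 598 CPM in WT libraries and 390 and 330 CPM in KI (log2 fold change -0.65, SE 0.12, adjusted p = 0.0651), a sum in which the make-up of classes and the level per nucleus cannot be told apart.

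**Figure D2:**
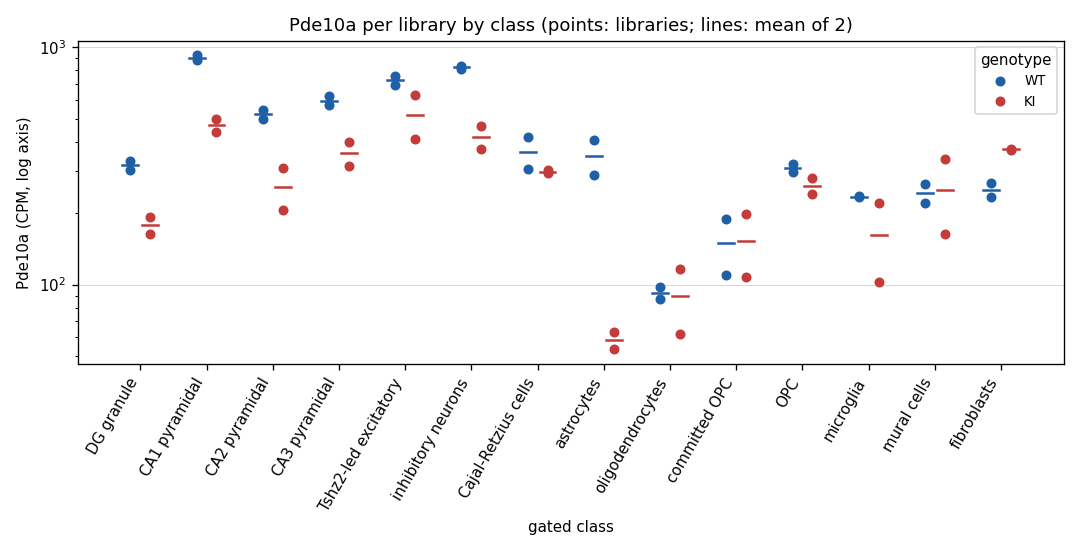
Pde10a level (CPM, log axis) in each library by class, WT in blue and KI in red, with a line at the mean of 2 libraries. The KI libraries lie below the WT libraries in DG, CA1, CA2 and CA3, and the widest gap is in astrocytes, where KI libraries have 53.3 and 63.5 CPM.

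In astrocytes, the contrast on which the choice of genes rests, Pde10a had 407 and 288 CPM in WT (470 and 406 UMIs) and 53.3 and 63.5 CPM in KI (29 and 39 UMIs). The KI mean was 0.168 of the WT mean and the log2 fold change -2.52, given as a description without a test. For background, 0.905% of 10391 genes in astrocytes passed an adjusted p of 0.05, from which nothing is read for these genes. KI oligodendrocytes, the lowest class in WT, had 61.9 and 117 CPM in the same libraries, the higher of them in KI replicate 2. Astrocyte gates held 559 and 614 nuclei in WT and 211 and 285 in KI libraries, which were 3.74% and 4.96% against 1.77% and 2.23% of kept nuclei. The gate markers do not include Gfap, and the study reports an astrocyte subtype with higher Gfap that was more abundant in KI. Whether the gate holds the same part of the astrocytes in both genotypes was not tested.

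The share of astrocyte nuclei with a Pde10a UMI is drawn from the same UMIs and is a further description, not support for the contrast. With every nucleus thinned to 1000 UMIs, 26.7% and 20.1% of WT astrocytes and 6.44% and 5.30% of KI astrocytes held at least 1 Pde10a UMI, and before thinning 40.4% and 32.4% against 11.8% and 10.5%. Thinning left out 31 and 18 WT and 9 and 21 KI astrocytes with fewer UMIs. Oligodendrocytes, taken as the class with the least Pde10a, gave thinned shares of 8.67% and 8.55% in WT and 5.97% and 7.17% in KI, with median depths of 1440 to 1534 UMIs against 1823 to 2369 UMIs in astrocytes. The KI astrocyte shares lay beside these oligodendrocyte shares, which include KI replicate 2 with its higher neuronal transcripts. Whether the oligodendrocyte UMIs mark a background was not tested. Exact 95% intervals (Clopper-Pearson) cover counting error over nuclei, which are not replicates of a genotype, and nothing is read from them. CA1 nuclei went from 51.8% and 52.1% in WT to 37.1% and 33.4% in KI, and DG nuclei from 24.1% and 25.8% to 17.0% and 14.2%.

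Other cell types in the astrocyte gate were measured beside this. The summed level of 10 neuronal transcripts was 3654 and 3460 CPM in WT libraries and 3221 and 3992 CPM in KI astrocytes, with all 10 above 0, so that the groups overlapped. Of the marker sums of single neuronal classes in the astrocyte gate, the Tshz2-led gate set apart, 3 were lower in both KI libraries than in both WT libraries. These were the sums of DG granule neurons (1104 and 1041 CPM in WT, 863 and 959 CPM in KI), CA1 neurons (196 and 181, 155 and 179 CPM) and inhibitory neurons (356 and 332, 246 and 296 CPM). Those of CA2, CA3, mossy and Cajal-Retzius cells overlapped or were higher. The sum for the Tshz2-led gate was lower in both KI libraries too (1499 and 1690 CPM in WT, 1427 and 983 CPM in KI). It is not a neuronal measure here, since its markers Rorb and Tle4 were higher in astrocytes (1006 and 302 CPM) than in that gate. The part of neuronal RNA in the Pde10a value was not tested. The sum of the 10 astrocyte markers was 15337 and 15757 CPM in WT libraries and 20071 and 15853 CPM in KI. Markers of fibroblasts (246 and 276 CPM in WT, 180.3 and 219.7 CPM in KI) and of committed oligodendrocyte precursors (309.7 and 300.5, 279.6 and 283.2 CPM) were also lower in both KI libraries. The fibroblast sum does not measure fibroblasts alone, since its marker Ranbp3l had 124 CPM in the astrocyte class. The summed endothelial markers were 10.4 and 12.1 CPM in WT libraries and 55.2 and 26.0 CPM in KI astrocytes, and the part of these cells in the result was not tested. The log2 fold change of Pde10a in astrocytes was between -2.75 and -2.28 when a library was left out and -2.16 when doublets were kept.

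**Figure D3:**
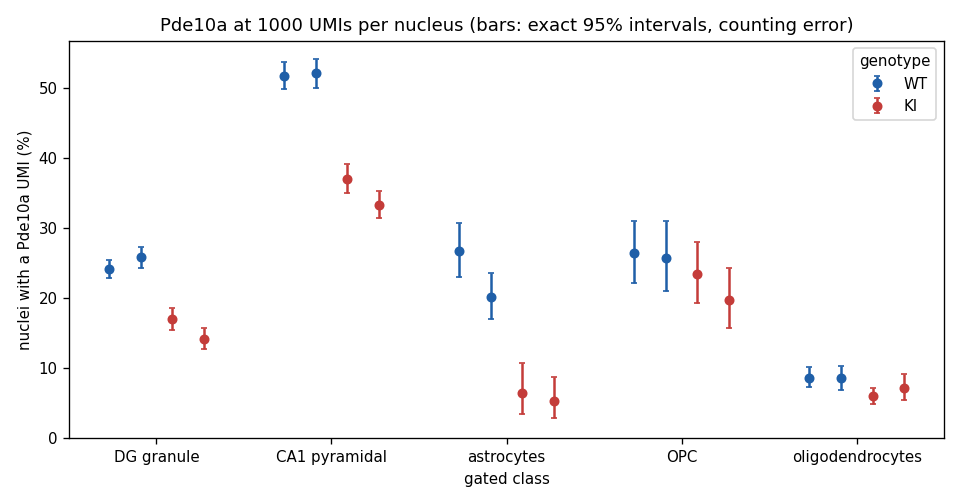
Share of nuclei with at least 1 Pde10a UMI after thinning to 1000 UMIs per nucleus, for 5 classes (x axis) and 4 libraries (WT blue, KI red), with exact 95% intervals for counting error. KI astrocytes lie at 6.44% and 5.30%, beside 5.97% to 8.67% in oligodendrocytes.

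The other members in astrocytes are given as descriptions too. The cAMP-specific genes Pde8b (394 and 438 CPM in WT, 256 and 223 CPM in KI, log2 fold change -0.76), Pde7b (301 and 287 CPM, 221 and 140 CPM, -0.66) and Pde4b (421 and 443 CPM, 327 and 285 CPM, -0.46) were lower in both KI libraries than in both WT libraries. Pde9a was higher in both KI libraries (35.5 and 35.5 CPM in WT, 47.8 and 55.3 CPM in KI, from 26 to 50 UMIs per library). Pde1a, Pde1c, Pde2a, Pde4a and Pde4d overlapped between the genotypes, with log2 fold changes of -0.03 to 0.34. For background, 23.9% of the genes of this class were below without overlap and 19% above, from which nothing is read, since the contrast served to choose the genes.

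In DG granule neurons, Pde1a and Pde7b fell together with Pde10a. Pde1a, the calcium-activated enzyme, had 258 and 266 CPM in WT libraries and 70.4 and 118 CPM in KI, 0.359 of the WT mean (log2 fold change -1.35, SE 0.20, edgeR adjusted p = 0.0142). Pde7b, a cAMP-specific enzyme, had 368 and 356 CPM in WT libraries and 111 and 203 CPM in KI, 0.434 of the WT mean (log2 fold change -1.08, SE 0.23, edgeR adjusted p = 0.0396). For both genes the WT libraries were close to each other, the KI libraries lay apart from each other, and KI replicate 1 was the lower. Of 10 members tested in DG granule neurons 3 passed, all lower in KI, where 9.1% of 16415 genes passed and 4.53% passed as lower. Both values passed under every alternative tried, Pde1a with log2 fold changes of -1.71 to -1.06 and Pde7b of -1.51 to -0.74. Pde4a, whose highest WT level was in this class, had 133 and 155 CPM in WT libraries and 80.7 and 100 CPM in KI and missed the threshold (log2 fold change -0.53, SE 0.13, adjusted p = 0.0515). Pde8b had 250 and 256 CPM in WT libraries and 294 and 284 CPM in KI (log2 fold change 0.33, SE 0.09, adjusted p = 0.0774). The DG gate held 4364 and 3285 WT and 2227 and 2184 KI nuclei, and a scaling by library totals shifted the median of all genes of this class to -0.14, with 34.7% of calls higher in KI against 50.2% with the scaling used.

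In the other classes of neurons no lower call was made for Pde1a. CA1 had 1157 and 1156 CPM of Pde1a in WT and 1322 and 1307 CPM in KI (log2 fold change 0.25, SE 0.09, adjusted p = 0.159), CA2 1023 and 1026 against 1255 and 1427 CPM (0.42, adjusted p = 0.114) and CA3 926 and 1011 against 1056 and 1256 CPM (0.32, adjusted p = 0.111). Inhibitory neurons had 186 and 223 CPM in WT libraries and 310 and 339 CPM in KI (log2 fold change 0.76, SE 0.12, edgeR adjusted p = 0.0663, DESeq2 adjusted p = 0.000180). In these 4 classes both KI libraries were above both WT libraries, in DG granule neurons both were below. In the Tshz2-led gate, the class with the highest WT mean, the groups overlapped, with 1111 and 1214 CPM in WT libraries and 1042 and 1187 CPM in KI (log2 fold change 0.00, SE 0.15, adjusted p = 0.999). The genotype effect on Pde1a in DG granule neurons minus that in CA1 neurons was -1.62 on the log2 scale (SE 0.19, edgeR, interaction of class and genotype, blocked by library, adjusted p = 0.000639). Pde1a was the only one of the 10 members that passed this test of the difference, which 9.98% of 17971 genes passed. The differences for Pde4d (-0.37, adjusted p = 0.0558), Pde7b (-0.79, adjusted p = 0.0636), Pde8b (0.34, adjusted p = 0.0652) and Pde9a (0.46, adjusted p = 0.0884) missed the threshold, and that for Pde10a was 0.20 (SE 0.10, adjusted p = 0.299). For Pde1a the difference was between -2.03 and -1.26 and passed in each of the 10 alternatives run for it, which hold neither DESeq2 nor a replicate block.

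**Figure D4:**
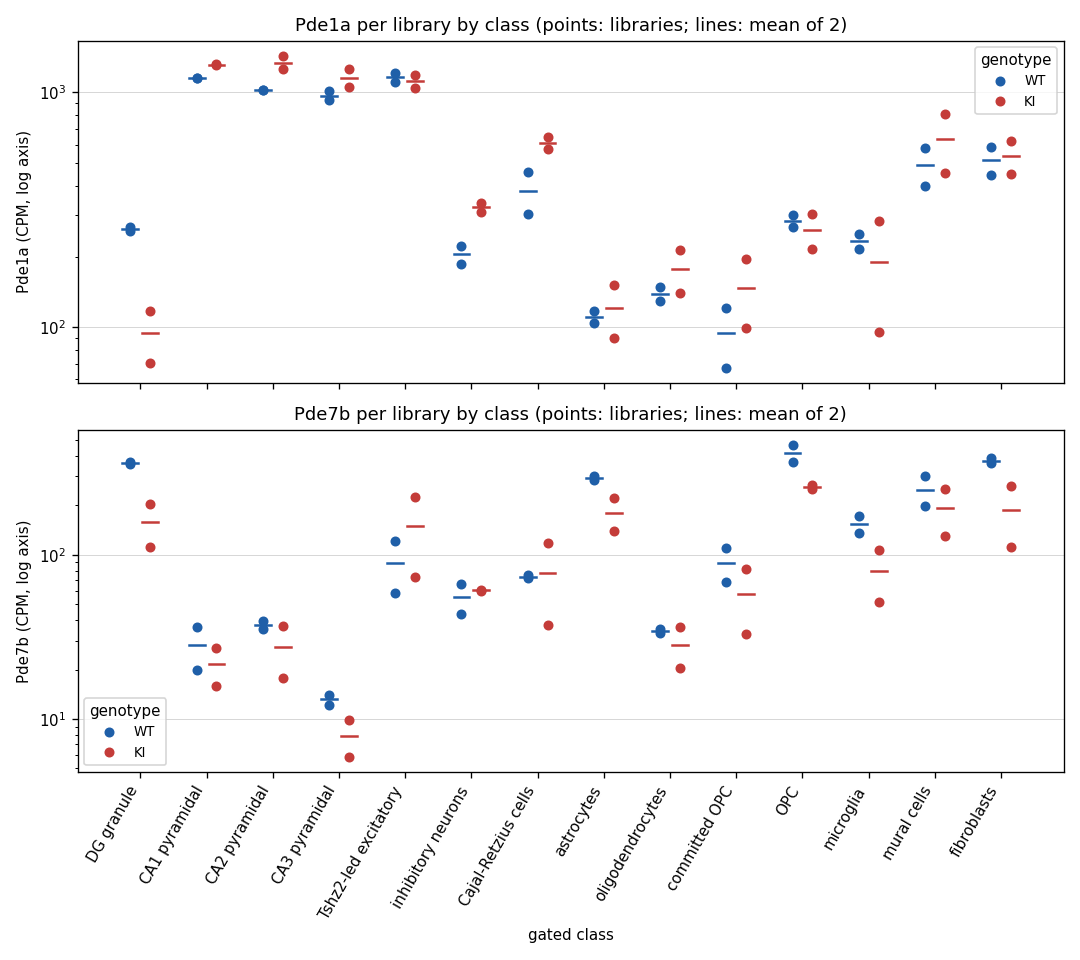
Pde1a (top) and Pde7b (bottom) levels (CPM, log axis) in each library by class, WT in blue and KI in red, with a line at the mean of 2 libraries. In DG granule neurons KI libraries are below WT libraries for both genes, while Pde1a is higher in KI in CA1, CA2, CA3 and inhibitory neurons.

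Pde7b was low in CA1 (19.8 and 36.2 CPM in WT, 15.9 and 27.2 CPM in KI), where the groups overlapped. Among the other classes with much Pde7b, oligodendrocyte precursors had 366 and 465 CPM in WT libraries and 253 and 267 CPM in KI (log2 fold change -0.57, SE 0.20, adjusted p = 0.568, and -0.62 with an adjusted p of 0.108 without KI replicate 2), and fibroblasts 364 and 386 CPM in WT libraries and 262 and 112 CPM in KI (-0.94, SE 0.45, adjusted p = 0.912). Neither passed, though the groups did not overlap, and in all Pde7b had both KI libraries below both WT libraries in 5 of the 13 classes other than astrocytes, beside 30.4% of all pairs, and above in 0, beside 18.2% of all pairs. Summed over all nuclei, Pde7b had 148 and 134 CPM in WT libraries and 69.0 and 80.6 CPM in KI (log2 fold change -0.86, SE 0.10, edgeR adjusted p = 0.0366). It was the only member that passed over all nuclei, where 0.889% of 21718 genes passed and 0.382% passed as lower. Since DG granule neurons were fewer in KI, their number and their level cannot be told apart in that sum, and without WT replicate 1 its adjusted p was 0.0616.

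CA1 neurons had 2 further calls. Pde4d, a cAMP-specific enzyme, had 723 and 714 CPM in WT libraries and 943 and 936 CPM in KI, 1.31 of the WT mean (log2 fold change 0.46, SE 0.09, edgeR adjusted p = 0.0480). Pde9a, the cGMP-specific enzyme, had 23.3 and 28.4 CPM in WT libraries and 12.0 and 13.4 CPM in KI, 0.492 of the WT mean (log2 fold change -0.95, SE 0.15, edgeR adjusted p = 0.030). The libraries of each genotype were close together for both genes and the genotypes did not overlap. With Pde10a, 3 of 10 members tested in CA1 passed, 1 higher and 2 lower, where 4.3% of 17157 genes passed, 2.72% as higher and 1.59% as lower. The Pde4d call was lost in 5 of 12 alternatives, with an adjusted p of 0.217 and 0.229 without WT replicates 1 and 2, 0.115 without KI replicate 1, 0.0505 when scaled by library totals and 0.151 without the low-count filter. The Pde9a call was lost without WT replicate 2 (adjusted p = 0.107), without KI replicate 1 (0.119) and without the low-count filter (0.137).

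CA3 neurons added Pde1c, a calcium-activated enzyme that was scarce there. It had 11.9 and 9.52 CPM in WT libraries and 21.3 and 23.6 CPM in KI, 2.10 times the WT mean (log2 fold change 1.13, SE 0.19, edgeR adjusted p = 0.0222), with no overlap. CA2 had 10.8 and 9.32 CPM in WT libraries and 20.5 and 26.7 CPM in KI and did not pass (log2 fold change 1.24, SE 0.32, adjusted p = 0.0848). With Pde10a, 2 of 10 members passed in CA3, 1 higher and 1 lower, where 3.43% of 15275 genes passed, 2.21% as higher and 1.22% as lower. In CA2, 1 of 10 members passed, where 1.31% of 10903 genes passed and 0.449% passed as lower. The CA3 call for Pde1c was lost without WT replicate 1 (adjusted p = 0.106), without WT replicate 2 (0.210) and with cluster-based classes, where the log2 fold change was 0.59 (adjusted p = 0.140).

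Pde2a, Pde4a, Pde4b and Pde8b passed in no class with all 4 libraries. Pde4b had 5409 and 6102 CPM in WT oligodendrocytes and 4808 and 3388 CPM in KI (log2 fold change -0.42, SE 0.22, adjusted p = 0.470), and its unadjusted p was below 0.05 in 0 classes. Pde2a stayed between -0.25 and 0.63 on the log2 scale over the classes tested and Pde4a between -0.62 and 0.07, each with an unadjusted p below 0.05 in 2 classes, and Pde8b had 1. DESeq2 called Pde4a in 1 class and Pde2a, Pde4b and Pde8b in 0. The shares of all genes that pass these measures over the same classes are not given, so nothing is read from these counts per gene. In the 9 classes without a call by edgeR, 7 of 80 tested pairs had an unadjusted p below 0.05, as 9.91% of all pairs there had, and DESeq2 called 2, Pde1a and Pde10a in inhibitory neurons, where it called 1.39% of genes. In those classes edgeR called 0.077% of genes in inhibitory neurons, 0.136% in oligodendrocytes, 0.0179% in oligodendrocyte precursors and 0 genes in the other 6. Without KI replicate 2, 4 members passed in microglia, Pde1a (log2 fold change -1.24, against -0.13 with all libraries), Pde4a (-1.35 against -0.41), Pde7b (-1.56 against -0.81) and Pde10a (-1.15 against -0.38), and 3 in oligodendrocytes, Pde4a (-0.82 against -0.31), Pde7b (-0.66 against -0.27) and Pde10a (-0.50 against -0.02), all lower in KI. With all libraries the adjusted p of these 7 values was 0.712 to 0.986. In that fit 15.6% of all genes passed in microglia and 19.9% in oligodendrocytes, and KI replicate 1, the KI library left, had fewer neuronal transcripts than both WT libraries (4248 CPM against 5730 and 6240 CPM in microglia, 3659 CPM against 4072 and 4170 CPM in oligodendrocytes). Their part in these values was not tested. In oligodendrocyte precursors Pde4a passed as lower (-1.97 against -0.18 with all libraries, adjusted p = 0.958), where 2.82% of genes passed, and in oligodendrocytes Pde4b had a log2 fold change of -0.17 (adjusted p = 0.0918).

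**Figure D5:**
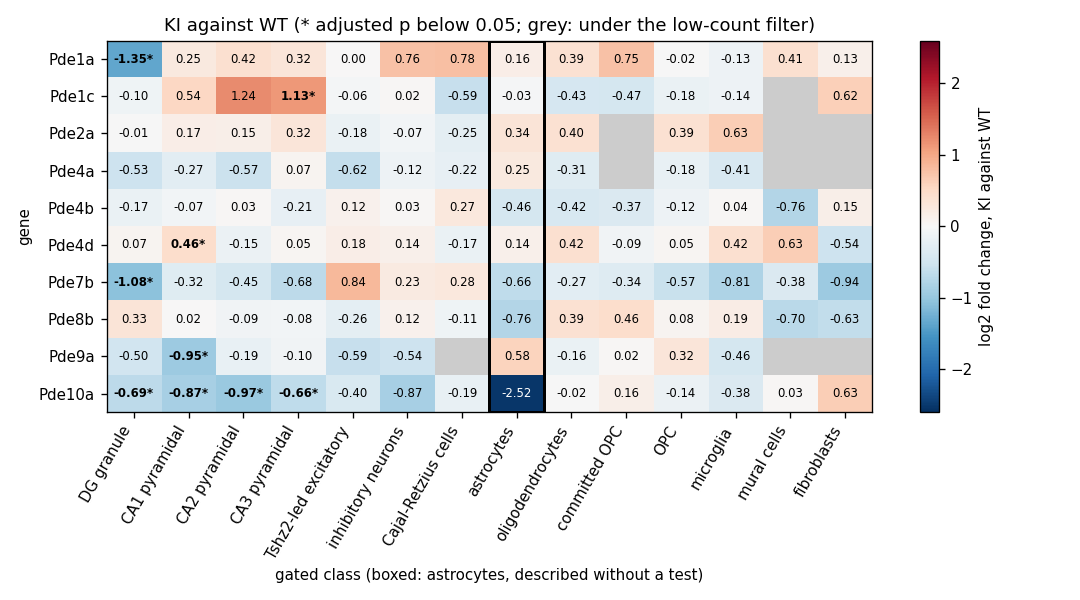
Log2 fold change of KI against WT for each gene (rows) and class (columns); an asterisk marks an adjusted p below 0.05 (edgeR), grey a pair under the low-count filter and the box the astrocytes, which are described without a test. The 9 marked values are all in DG, CA1, CA2 and CA3, and 4 of them are Pde10a.

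The rest of the cyclic nucleotide pathway was read from 7 lists with 70 genes in the files, namely the other phosphodiesterases, adenylyl and guanylyl cyclases, subunits of protein kinase A, protein kinase G with the EPAC proteins and cyclic nucleotide-gated channels, A-kinase anchoring proteins, and CREB factors with their coactivators. In DG granule neurons 5 of 62 tested genes passed, 2 higher and 3 lower, where 9.1% of all genes tested passed, in CA1 2 of 66, where 4.3% passed, in CA2 1 of 52, where 1.31% passed, and in CA3 2 of 61, where 3.43% passed. These shares are near the background and are not read as a result about the pathway. In the other 9 classes besides astrocytes, which were not counted, edgeR called 0 of 400 tested pairs. DESeq2 called 0 as well, where it called 0.467% of all 83215 pairs of a gene and a class there. Of the 400 pairs, 31 had an unadjusted p below 0.05 in edgeR, beside 9.91% of all pairs in these classes. The list medians in DG granule neurons were between -0.34, for protein kinase G, EPAC and channels, and 0.05, for A-kinase anchoring proteins, beside 0.00 for all genes tested.

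Among the other phosphodiesterases, Pde11a, which encodes an enzyme for both messengers, was the only gene called, and it rose in 3 pyramidal classes. It had 173 and 182 CPM in WT libraries and 291 and 262 CPM in KI in CA1 (log2 fold change 0.71, SE 0.11, edgeR adjusted p = 0.0297). In CA2 it had 39.3 and 53.9 CPM in WT libraries and 197 and 147 CPM in KI (1.94, SE 0.20, edgeR adjusted p = 0.000908), and in CA3 41.1 and 53.9 CPM in WT libraries and 107 and 130 CPM in KI (1.39, SE 0.15, edgeR adjusted p = 0.0101). Pde11a and Pde10a, both genes for enzymes that cut cAMP and cGMP, passed in opposite directions in these 3 classes. On the side of synthesis, Adcy8, a calcium-stimulated adenylyl cyclase, had 118 and 146 CPM in WT libraries and 58.2 and 61.3 CPM in KI in CA1 (log2 fold change -1.07, SE 0.12, edgeR adjusted p = 0.0122).

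Effectors of cAMP and cGMP and a regulator of protein kinase A made up the 5 calls in DG granule neurons. Rapgef4, which encodes the cAMP-activated exchange factor EPAC2, had 306 and 309 CPM in WT libraries and 637 and 594 CPM in KI (log2 fold change 1.14, SE 0.10, edgeR adjusted p = 0.00334). Prkg2, a cGMP-dependent kinase, had 7.60 and 9.86 CPM in WT libraries and 3.16 and 2.79 CPM in KI (-1.40, SE 0.25, edgeR adjusted p = 0.0235), and Pkib, an inhibitor of protein kinase A, 27.5 and 27.7 CPM in WT libraries and 15.1 and 11.9 CPM in KI (-0.88, SE 0.17, edgeR adjusted p = 0.030). Prkg1, the other cGMP-dependent kinase, had 1269 and 1177 CPM in WT libraries and 825 and 800 CPM in KI DG granule neurons (-0.45, SE 0.09, edgeR adjusted p = 0.0295) and was called lower in CA3 neurons as well (1842 and 1767 CPM in WT, 1263 and 1321 CPM in KI, log2 fold change -0.41, SE 0.09, edgeR adjusted p = 0.0401). Prkacb, a catalytic subunit of protein kinase A, rose in the DG, with 80.7 and 84.8 CPM in WT libraries and 119 and 117 CPM in KI (0.65, SE 0.10, edgeR adjusted p = 0.0159). The 10 pathway values called kept their direction in 119 alternatives and their call in 102. The 17 losses include Prkacb, Pkib and Prkg1 in DG granule neurons without either WT library (adjusted p of 0.140 to 0.315), Prkg2 without WT replicate 2 (0.172), Prkg1 in CA3 without either WT library (0.422 and 0.185), Adcy8 without KI replicate 1 (0.107) and Pde11a in CA1 without WT replicate 1 or KI replicate 1 (0.0789 and 0.103). The Pde11a call in CA2 was lost with the replicate number as a block (0.0832) and that in CA3 with Leiden clusters (0.0558).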

How the data were processed

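Nuclei of the frozen hippocampus in 4 libraries were profiled by a droplet method that reads transcript 3′ ends. The submitters' processing notes name Cell Ranger 7.0.1 and mm10 for the authors' matrices, and the deposited values are raw UMI counts per gene and barcode, not normalized. The annotation, the strand setting and whether introns were counted are not given in the sources used here, and positions are those of GENCODE on GRCm38. The authors' deposited feature and barcode lists were read as text.

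Barcodes needed 500 genes and less than 5% of UMIs from mitochondrial genes, and doublets with a Scrublet score (scanpy 1.11.5, expected rate 0.08) above 0.25 were removed. Each nucleus was gated by the multinomial likelihood of its marker counts under 17 class profiles, estimated from nuclei with clear marker expression, and kept in a class at a posterior of at least 0.9, with 2620 nuclei between 0.8 and 0.95. The study's own classes may differ. UMIs were summed per library and class, and the genotypes were compared in edgeR 4.0.16 (R 4.3.3, filterByExpr, TMM, quasi-likelihood test, Benjamini-Hochberg over the genes of a class, threshold 0.05). Libraries, not nuclei, were the replicates, unlike the single-nucleus test of the study. The SE of an edgeR log2 fold change was computed from that fold change and the F statistic of its test. The difference between DG granule and CA1 neurons was tested as the interaction of class and genotype, blocked by library. On simulated counts with 200 genes changed, the test recovered 39% of genes changed by 1 on the log2 scale in DG granule neurons, 41% in CA1, 24% in oligodendrocytes and 38% in microglia, and 92% to 96% of those changed by 2. The simulation gave every gene and class the same spread between libraries (dispersion). These shares are therefore not the power of the test in these data, where the spread differs between classes.

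The 10 genes, the marker and pathway lists and the tests were chosen with earlier results of these data known. Named are the 10 genes in every class, up to 3 pathway genes per class with the largest log2 fold change among those called, and the genes most like each member over classes among those with a class mean of at least 10 CPM. Prkacb and the Prkg1 value in DG granule neurons fall outside the 3 and were named after their values were seen. Groups and replicate numbers came from the labels, which give 1 batch. Alternatives were library totals, DESeq2 1.42.0, no low-count filter, doublets kept, at least 1000 genes, a posterior of at least 0.99, Leiden clusters (leidenalg 0.10.2) in place of gates, each library left out and a replicate block. Intervals cover counting error only. Endothelial (18 nuclei in 1 library), ependymal (7) and mossy cell gates were left out, the last after its markers were seen.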

Additional observations from a re-analysis of the deposited data

Results flagged for a closer look

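The effect of the genotype on Pde1a differed between DG granule and CA1 pyramidal neurons by the test of the difference itself, with -1.62 on the log2 scale for DG granule minus CA1 neurons. Other differences between classes were noted because both KI libraries lay below both WT libraries in some classes and above in others, and apart from the DG and CA1 pair of Pde1a these were not tested. Pde1a was lower in this sense in 1 class, DG granule neurons, and higher in 5, CA1, CA2, CA3, inhibitory neurons and Cajal-Retzius cells. Pde1c was lower in 1 class, oligodendrocytes, and higher in 3, CA1, CA2 and CA3. Pde4a was lower in 4 classes, DG granule, CA1, CA2 and the Tshz2-led gate, and higher in 1, fibroblasts, where it was under the low-count filter with 7 to 19 UMIs. Pde8b was lower in 2 classes, the Tshz2-led gate and mural cells, and higher in 3, DG granule neurons, oligodendrocytes and committed oligodendrocyte precursors. Pde10a was lower in 9 classes, all 7 classes of neurons among them, and higher in 1, fibroblasts. Over all tested pairs of a gene and a class, 30.4% were lower in this sense and 18.2% higher. Astrocytes, whose contrast served to choose the genes, are not counted.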

How the results depend on the processing

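The 9 calls over classes became 14 without the low-count filter and between 4 and 34 when a library was left out, and were 9 to 12 under library totals, DESeq2, kept doublets, at least 1000 genes, a posterior of at least 0.99 and Leiden clusters. The 1 member called for a different effect in DG granule and CA1 neurons became 3 with library totals, 4 without the filter, 2 at a posterior of at least 0.99, 4 with Leiden clusters and between 1 and 6 when a library was left out, while the share of all genes called went from 9.98% to 10.1%, 9.82%, 10.1%, 13.4% and 6.25% to 15.9%. The 9 calls stayed 9 with the mossy cell gate added, an alternative chosen after seeing the data. For the calls over classes, the share of all tested pairs called is not given for the other alternatives that keep all libraries. Their member counts are therefore not read against a background. The called values of the members kept their direction in all 129 alternatives and their adjusted p below 0.05 in 108. The cause of the losses was not tested, and a library left out leaves 1 sample in its group, which is assumed to vary like the others.

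Counts of genes called over a whole class moved more. In DG granule neurons 1494 genes became 2437 without the filter and 515 to 7584 without a library. In CA1, 738 became 1167 with DESeq2, 0 without the filter, 1296 with Leiden clusters and 0 to 2640 without a library. In CA2, 143 became 60 with DESeq2, 456 without the filter, 91 with doublets kept and 21 to 1352 without a library, and in CA3 524 became 1964 without the filter and 36 to 5278 without a library. With library totals the median of all genes was -0.14 in DG granule neurons and -0.11 in Cajal-Retzius cells, committed oligodendrocyte precursors and mural cells, the share of calls higher in KI went from 64.5% to 53.4% in CA3 and from 58.5% to 46.2% in astrocytes, and 11 of 130 values of the members changed sign, each at most 0.08 in size.

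Deviations of same-numbered libraries correlated between -0.24 and 0.25 over classes. With 2 libraries a genotype this cannot settle whether replicate numbers pair the libraries. With the replicate number as a block, 13 member values were called against 9, and 2605, 1772, 3 and 1310 genes in DG, CA1, CA2 and CA3, and the CA2 value of Pde10a had an adjusted p of 0.111. Neither a block nor DESeq2 was run for the difference between DG and CA1, whose design already holds the library. With 2 libraries a genotype, classes of under 100 nuclei per library have little depth, and levels near 10 CPM rest on few UMIs.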
